A study of Mus musculus with 22 samples.

Results

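The genes described here were 40 genes of the cell cycle, chosen by name and matched through the Ensembl identifiers of the count table, out of 54838 identifiers counted in bulk RNA sequencing of mouse small intestine. All 40 passed the filter on low counts and were tested among 15780 genes. The mice were FVB/N females aged 8 to 14 weeks, kept in a conventional animal house, and carried either 2 wild-type copies of the glucocorticoid receptor gene (GRWT) or 2 copies of a point mutant whose protein forms homodimers and binds DNA less efficiently (GRDim). The mutant is carried in every cell, so a difference between genotypes cannot be assigned to the epithelium. Mice of both genotypes drank either normal water or water with 25 mM ZnSO4 for 7 days. The 22 libraries comprised 5 of GRWT on water, 5 of GRWT on zinc, 6 of GRDim on water and 6 of GRDim on zinc. The counts do not show the point mutation, so the genotype labels were not checked. The libraries are labelled either as ileum or as IEC, the inner part scraped from about 5 cm of distal ileum. Nothing in the labels says that libraries came from separate mice, so the p-values below measure the spread between libraries.

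Cells of the intestinal crypt divide fast and replace the villus epithelium within days. Before S phase, CDC6 and CDT1 load the MCM2 to MCM7 helicase on replication origins, and E2F transcription factors switch on the genes of DNA synthesis. In G2 and mitosis, cyclins A and B with CDK1, the kinases PLK1, Aurora A and Aurora B, and finally the anaphase promoting complex with CDC20 take over, and many of their genes are read through CCAAT boxes and a CHR element bound by the MuvB complexes with B-MYB and FOXM1. The amounts of these mRNAs follow the share of cells that cycle. In a bulk sample, a larger share of dividing cells and more RNA per dividing cell cannot be told apart.

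RefSeq promoter windows on GRCm38.p6, from 250 bases before to 50 bases after the annotated start, were found for 32 of the 40 genes. Mcm4, Gins2, Ccne2, Ccna2, Foxm1, Aurkb, Kif20a and Tpx2 had none. The motifs were searched on both strands. The CCAAT box was searched as CCAAT. The CHR element was searched as TTTGAA, and also as TTTAAA in a second spelling. The E2F site was searched in 4 spellings, of which the first was TTCCCGC, another was spelled TTCGCGC, a further one was spelled TTGCCGC and the last was spelled TTGGCGC. Matches of E2F sites on opposite strands may overlap each other. A CCAAT box was present for 24 of the 32 genes and in 37.4% of all 32851 windows of the same length. A CHR was present for 21 genes and in 27.6% of windows, an E2F site for 11 genes and in 9.57% of windows, and CCAAT and CHR together for 18 genes and in 10.7% of windows. An E2F site was found for 6 of the 8 origin and helicase genes with a window, but for 0 of the 5 mitotic kinase and checkpoint genes and for 0 of the 5 spindle genes. A CHR was found for 4 of 5 in each of the latter groups. The windows of 6 genes are printed 5′ to 3′ in the direction of the gene, with matches in capitals. Mcm3 and Mcm6 show the E2F sites of helicase genes, and Top2a, Cdc20 and Ube2c the CCAAT and CHR pair of genes that act in G2 and mitosis. Pcna had the estimate nearest to no difference between genotypes on water, in the fit of 21 libraries. Mcm3 lies at chr1:20820263-20820562 (minus strand), Mcm6 at chr1:128359656-128359955 (minus), Top2a at chr11:99024140-99024439 (minus), Cdc20 at chr4:118437294-118437593 (minus), Ube2c at chr2:164769679-164769978 (plus) and Pcna at chr2:132253131-132253430 (minus).
Mcm3: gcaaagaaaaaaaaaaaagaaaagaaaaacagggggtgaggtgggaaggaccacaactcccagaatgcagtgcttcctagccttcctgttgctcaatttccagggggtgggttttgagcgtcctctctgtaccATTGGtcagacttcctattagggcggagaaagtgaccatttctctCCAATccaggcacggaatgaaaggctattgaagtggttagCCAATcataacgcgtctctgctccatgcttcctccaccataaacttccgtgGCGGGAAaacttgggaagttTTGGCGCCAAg
Mcm6: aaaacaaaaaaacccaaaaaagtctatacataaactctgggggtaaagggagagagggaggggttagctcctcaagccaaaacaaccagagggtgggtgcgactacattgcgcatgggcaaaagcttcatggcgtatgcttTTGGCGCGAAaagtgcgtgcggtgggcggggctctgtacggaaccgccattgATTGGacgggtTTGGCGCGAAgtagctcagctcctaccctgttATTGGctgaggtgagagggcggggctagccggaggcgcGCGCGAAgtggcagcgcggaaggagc
Top2a: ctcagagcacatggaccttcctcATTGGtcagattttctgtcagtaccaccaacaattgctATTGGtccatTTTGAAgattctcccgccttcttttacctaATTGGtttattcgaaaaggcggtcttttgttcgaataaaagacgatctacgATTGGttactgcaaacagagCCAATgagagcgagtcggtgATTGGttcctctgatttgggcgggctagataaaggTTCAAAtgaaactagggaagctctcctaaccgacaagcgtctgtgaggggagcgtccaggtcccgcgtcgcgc
Cdc20: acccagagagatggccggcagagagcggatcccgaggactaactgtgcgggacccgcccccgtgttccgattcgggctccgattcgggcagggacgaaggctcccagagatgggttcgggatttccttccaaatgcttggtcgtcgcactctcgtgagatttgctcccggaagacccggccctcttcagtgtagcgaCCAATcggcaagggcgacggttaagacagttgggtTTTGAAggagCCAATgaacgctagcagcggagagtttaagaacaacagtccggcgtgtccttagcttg
Ube2c: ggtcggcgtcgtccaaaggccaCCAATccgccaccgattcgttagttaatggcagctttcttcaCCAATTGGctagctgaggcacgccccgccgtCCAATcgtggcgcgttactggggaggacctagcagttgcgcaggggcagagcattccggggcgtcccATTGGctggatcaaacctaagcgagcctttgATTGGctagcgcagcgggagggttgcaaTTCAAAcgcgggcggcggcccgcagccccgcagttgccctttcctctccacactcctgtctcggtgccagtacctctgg
Pcna: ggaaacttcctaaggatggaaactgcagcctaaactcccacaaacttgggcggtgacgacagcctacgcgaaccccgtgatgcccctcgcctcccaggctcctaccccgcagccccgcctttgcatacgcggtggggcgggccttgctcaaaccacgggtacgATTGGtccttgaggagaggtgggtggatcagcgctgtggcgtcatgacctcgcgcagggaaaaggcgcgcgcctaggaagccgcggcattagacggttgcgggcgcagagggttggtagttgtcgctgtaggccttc
The CHR of Top2a nearest to the start covers positions -23 to -18, that of Cdc20 -18 to -13 and that of Ube2c -29 to -24, counted back from the start. The Pcna window held 1 CCAAT box, at -87 to -83, and neither of the other motifs. A match is a description of these letters and not evidence of binding.

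The libraries held 13149951 to 15620744 counts, and the members 21 to 4753 counts in a library. Myh11, the heavy chain of smooth muscle myosin, split the libraries into 12 with over 100 CPM, the count scaled to the size of the library, and 10 with less, here called muscle-rich and muscle-poor. The split did not follow the labels, since 7 of 10 libraries labelled IEC and 5 of 12 labelled ileum were muscle-rich. In GRDim mice on water all 3 IEC libraries were muscle-rich and all 3 ileum libraries muscle-poor, whereas on zinc all 3 IEC libraries were muscle-poor and all 3 ileum libraries muscle-rich. Within a class, zinc and the tissue label therefore cannot be told apart in GRDim mice. On zinc, the 3 muscle-poor GRDim libraries were all IEC and the muscle-poor GRWT libraries all ileum. Genotype and label cannot be told apart in that class on zinc. The 3 muscle-rich GRDim libraries on zinc were all ileum, against 2 IEC and 1 ileum of GRWT. The class entered the fits as a covariate. Replicate 3 of the GRWT zinc ileum stood apart and was left out. Its summed markers of mature enterocytes reached 110243 CPM, against 7847 to 28607 in the other libraries, and its summed crypt base stem cell markers were 346 CPM, against 994.6 to 1527. Its level of the gene Fabp6, which is not a member, was 18.6 CPM, against 3939 to 11739 CPM in the other libraries. Its member levels were 0.195 to 0.987 times the mean of the other muscle-poor libraries, with a median of 0.298, and it was the lowest of all libraries for 36 of the 40 members.

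Levels below are CPM on library sizes scaled by TMM, a method that sets most genes to no change. Per kilobase of exon, Pcna, the sliding clamp of DNA polymerase, had the highest level with 39.2 ± 2.71 RPKM (SD over 21 libraries), followed by Ccnb2 with 27.2 ± 5.33 and Top2a with 26.4 ± 7.79. The order of Ccnb2 and Top2a is within their spread. The lowest were E2f1 with 2.27 ± 0.379, Gins2 with 2.24 ± 0.552 and Cdc6 with 1.95 ± 0.394 RPKM, which differ by less than their spread. Exons of Mcm7, Cdc45, Gins2, Tk1, Ccne2, Ccna2, Foxm1, Plk1, Kif20a, Nusap1, Cdc20, Ube2c and Top2a share bases with another annotated gene in GENCODE vM21, and their counts are uncertain to that extent because the strand setting of the counting is not given in the sources used here.

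**Figure D1:**
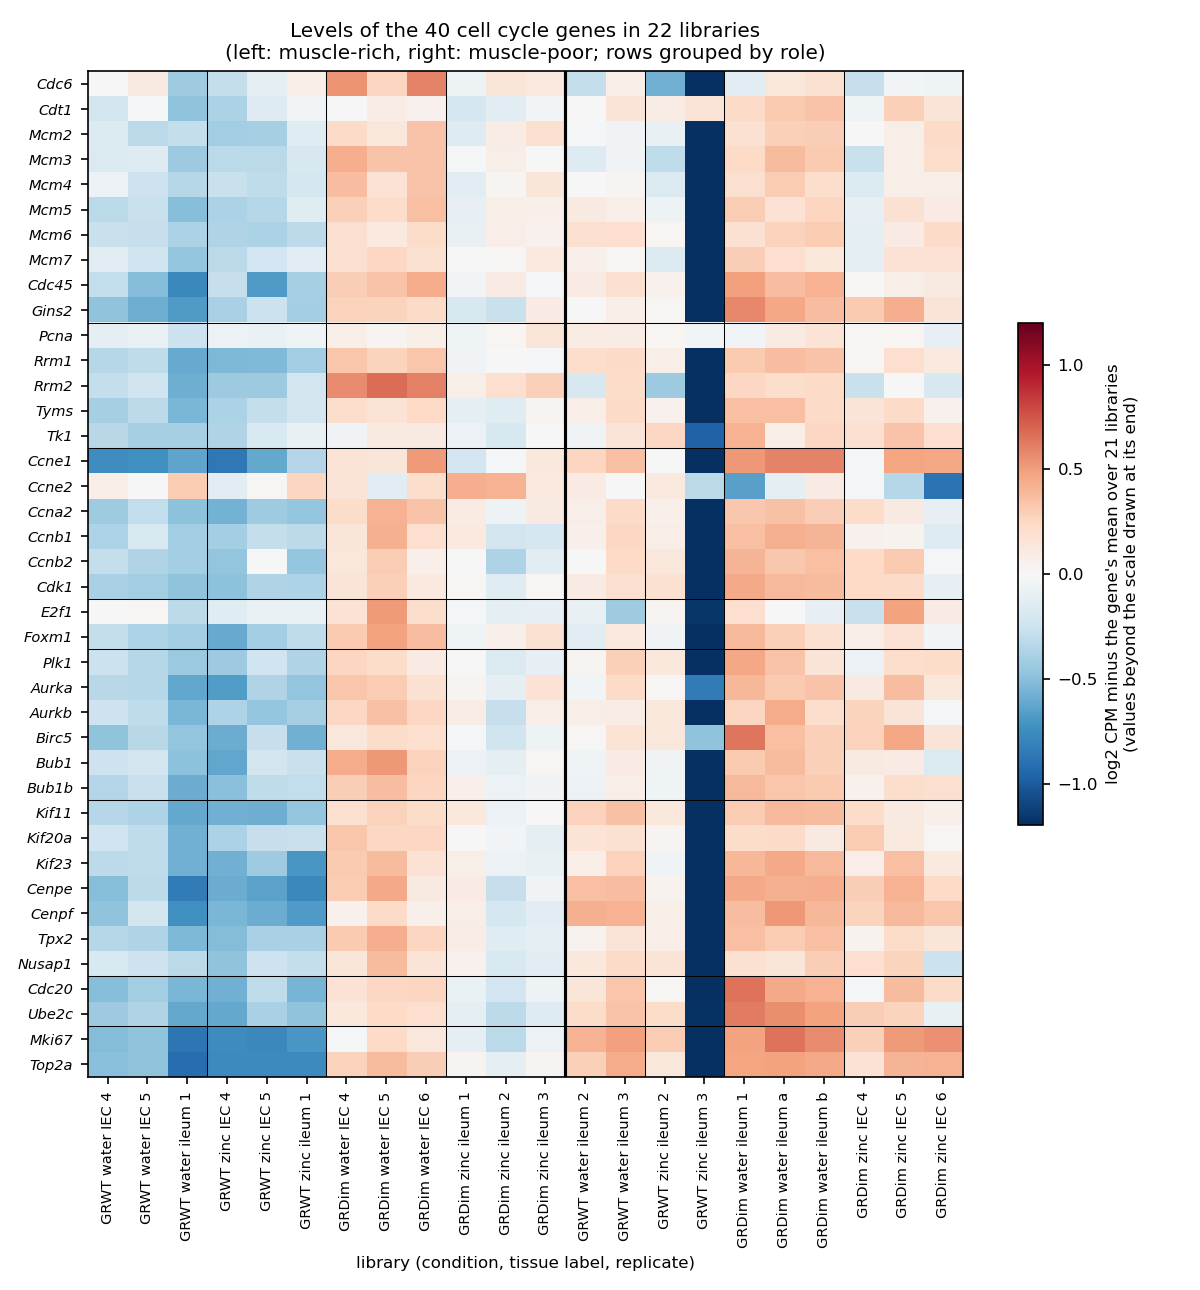
Heat map of the 40 genes (rows, grouped by role) in 22 libraries (columns, muscle-rich left and muscle-poor right of the thick line). Colour is log2 CPM minus the gene's mean over 21 libraries. The 6 muscle-rich GRWT libraries on the left are below the mean for nearly all genes and the 6 GRDim libraries on water above it for nearly all. GRWT zinc ileum replicate 3 is the lowest library for 36 genes, the exceptions being Cdt1, Pcna, Ccne2 and Birc5.

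The first comparison asks how the receptor mutation alone bears on these genes, in mice on normal water. The cell cycle genes were higher in GRDim than in GRWT intestine almost throughout. With the Myh11 class in the fit, 37 of 40 members were higher and 0 lower at an adjusted p under 0.05 (edgeR quasi-likelihood test, Benjamini-Hochberg over all genes), while 16.9% of all genes tested were higher and 16.3% lower. The median member difference was 0.45 on the log2 scale, with a range from -0.13 to 0.65, against a median of -0.00 over all genes. None exceeded 0.8, the fold cut-off used in the study. The count was 22 with no covariate and 11 with all 22 libraries. The class of the library bore strongly on this result, as described after the roles.

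All 10 genes of origin licensing and the replicative helicase were higher, by 0.24 to 0.65. Mcm5, a helicase subunit, stood at 65.4, 62.4 and 68.7 CPM in the 3 muscle-rich GRDim libraries on water and at 42.9, 44.6 and 37.7 CPM in the 3 GRWT libraries. In the muscle-poor libraries Mcm5 stood at 66.3, 60.5 and 64.2 CPM in GRDim and at 57.6 and 56.8 CPM in GRWT. The genotypes did not overlap in either class, and the gap was narrower in the muscle-poor libraries. The fitted difference of Mcm5 was 0.42 ± 0.08 (log2, SE; adjusted p = 0.00059, edgeR). Mcm3, whose promoter with its E2F sites is printed above, had 55.1, 51.6 and 51.6 CPM in muscle-rich GRDim libraries and 36.3, 36.6 and 30.1 CPM in GRWT libraries, a difference of 0.52 ± 0.07 (adjusted p = 2.4e-05, edgeR). Gins2, a subunit of the GINS complex that activates the helicase, showed 0.65 ± 0.09 and Mcm2 0.40 ± 0.07.

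Of the 5 genes of S phase synthesis and nucleotide supply, 4 were higher. Rrm2, the regulated subunit of ribonucleotide reductase, stood at 43.5, 46.8 and 44.6 CPM in muscle-rich GRDim libraries and at 24.1, 24.9 and 19.5 CPM in GRWT libraries on water. In muscle-poor libraries it stood at 34.9, 34.0 and 34.4 CPM in GRDim and at 25.7 and 34.2 CPM in GRWT, where the groups overlapped. The fitted difference was 0.63 ± 0.12 (adjusted p = 0.00063, edgeR). Pcna, by contrast, had 98.7, 96.2 and 98.7 CPM in muscle-rich GRDim libraries and 86.4, 88.7 and 78.4 CPM in GRWT libraries, and its difference of 0.11 ± 0.06 did not pass (adjusted p = 0.14, edgeR). It passed within the muscle-rich libraries alone, with 0.22 ± 0.06 (adjusted p = 0.0088, edgeR).

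Among the 6 cyclin and kinase genes 5 were higher and the pair of E cyclins, which drive entry into S phase, parted. Ccne1 was at 11.8, 11.6 and 15.0 CPM in muscle-rich GRDim libraries and at 6.30, 6.32 and 6.79 CPM in GRWT libraries on water. The fitted difference was 0.64 ± 0.13 (adjusted p = 0.001, edgeR), and 0.99 ± 0.15 in the muscle-rich libraries alone. Ccne2 was at 15.8, 12.9 and 16.4 CPM in muscle-rich GRDim libraries and at 14.9, 14.1 and 17.5 CPM in GRWT libraries. These groups overlapped, and Ccne2, singled out after its values were seen, had the only negative estimate of the 40, -0.13 ± 0.16 (adjusted p = 0.57, edgeR). Whether the 2 cyclins differed from each other in response was not tested. The mitotic partners were higher, with Ccna2 at 0.47 ± 0.10, Ccnb1 at 0.43 ± 0.08 and Cdk1, their catalytic subunit, at 0.45 ± 0.08.

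Of the transcription factors, Foxm1, which activates genes of G2 and mitosis, was higher by 0.53 ± 0.09 (adjusted p = 0.00016, edgeR). It stood at 32.0, 35.9 and 33.3 CPM in muscle-rich GRDim libraries and at 21.2, 20.0 and 19.3 CPM in GRWT libraries. E2f1, an activator of S phase genes, had only 66 to 153 counts per library in the 21 libraries and a difference of 0.33 ± 0.13, which just missed the threshold (adjusted p = 0.055, edgeR).

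All 17 genes of mitosis, namely 6 kinase and checkpoint genes including Birc5, 7 genes of spindle and kinetochore, 2 of the anaphase promoting complex and its activators, and the chromosome proteins Mki67 and Top2a, were higher. Bub1b, the checkpoint protein BUBR1, had the smallest p of the 40, with a difference of 0.53 ± 0.07 (adjusted p = 2.2e-05, edgeR). It stood at 52.1, 55.2 and 50.8 CPM in muscle-rich GRDim libraries and at 33.4, 35.5 and 28.3 CPM in GRWT libraries. Differences were 0.53 ± 0.09 for Bub1, 0.49 ± 0.08 for Birc5, the survivin subunit of the chromosomal passenger complex, 0.37 ± 0.08 for Plk1, 0.52 ± 0.08 for the spindle assembly factor Tpx2 and 0.47 ± 0.08 for the kinesin Kif23. Cdc20 and Ube2c, whose CCAAT and CHR promoters are printed above, an activator and the ubiquitin conjugating enzyme of the anaphase promoting complex, were higher by 0.51 ± 0.09 and 0.48 ± 0.08. Top2a, the topoisomerase that separates sister chromatids, stood at 275.2, 295.3 and 277.8 CPM in muscle-rich GRDim libraries and at 160.5, 162.2 and 120.1 CPM in GRWT libraries. In muscle-poor libraries Top2a stood at 315.3, 316.7 and 310.8 CPM in GRDim and at 277.4 and 309.8 CPM in GRWT. Mki67, the proliferation antigen Ki-67, gave 172.7, 204 and 192 CPM in muscle-rich GRDim libraries and 122, 125 and 95.2 CPM in GRWT libraries. In muscle-poor libraries Mki67 was at 243.5, 273.1 and 257.5 CPM in GRDim and at 232.7 and 244.8 CPM in GRWT, which overlapped. The fitted differences were 0.55 ± 0.13 for Top2a (adjusted p = 0.0032, edgeR) and 0.45 ± 0.11 for Mki67 (adjusted p = 0.0032, edgeR).

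**Figure D2:**
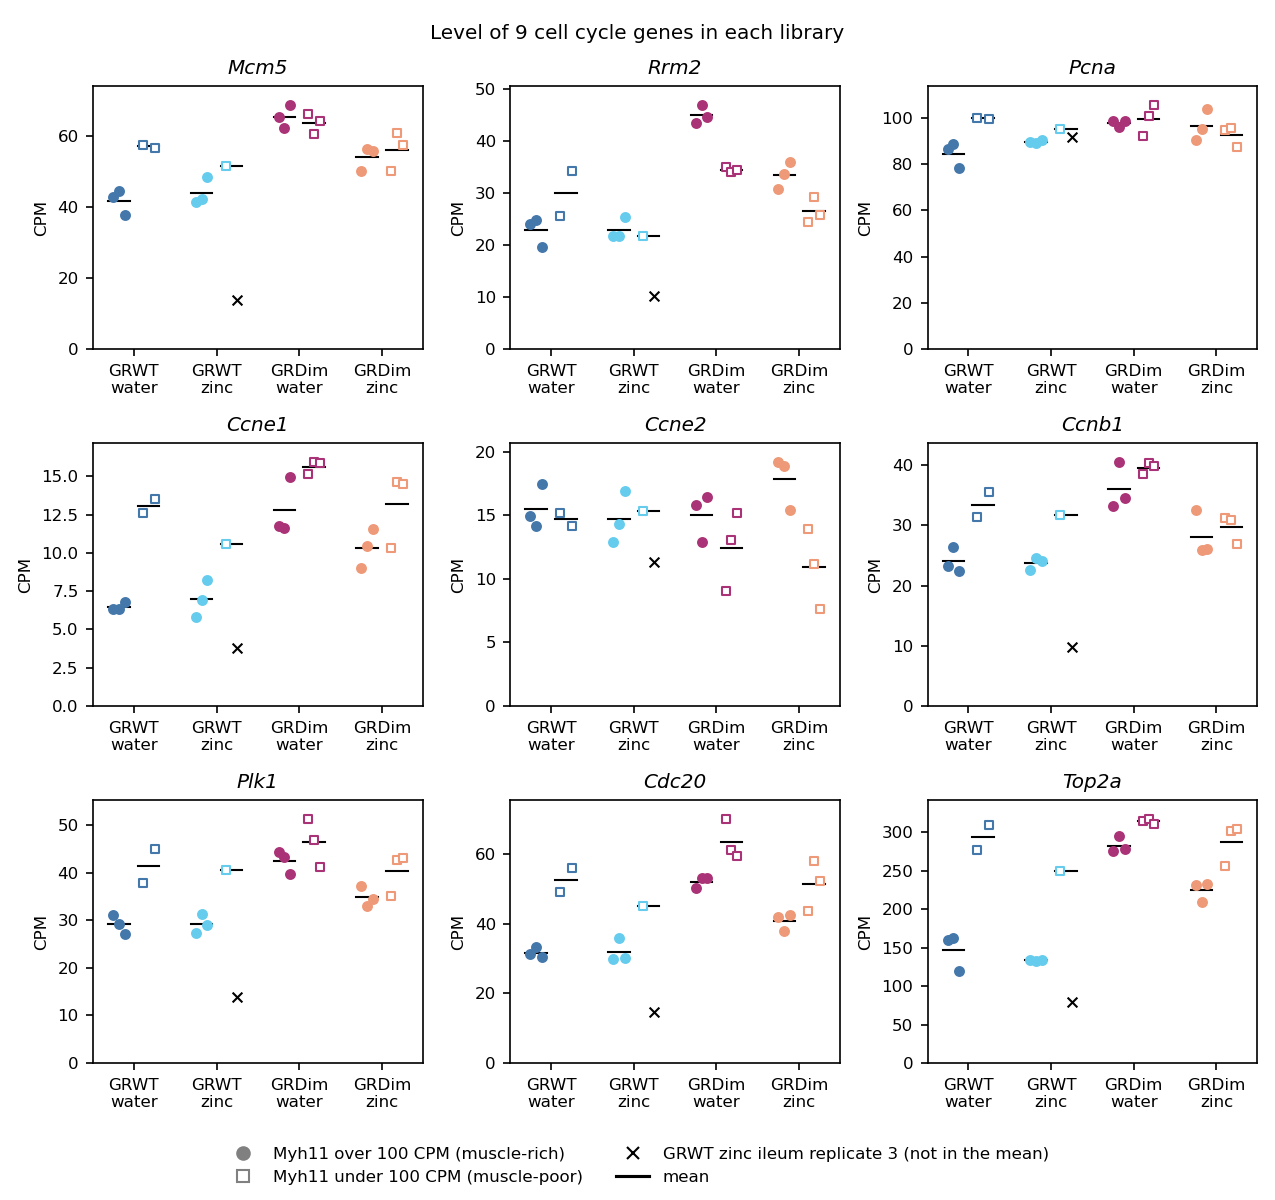
Level of 9 of the genes (CPM, axis from 0) in each of the 22 libraries, by condition, with muscle-rich libraries as filled circles, muscle-poor libraries as open squares, means as bars and GRWT zinc ileum replicate 3 as a cross. Rrm2, Ccne1 and Top2a in muscle-rich libraries on water separate GRDim from GRWT, whereas Ccne2 overlaps.

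The difference between genotypes on water passed the test among muscle-rich libraries, while among muscle-poor libraries it did not pass. Fitted alone, these 6 libraries on water, with the 6 on zinc, gave 38 members higher in GRDim (19.7% of all genes) with a median of 0.65. Beyond 0.8 lay 6 members, as did 5.02% of all genes, among them Rrm2 at 0.99 ± 0.09, Ccne1 at 0.99 ± 0.15, Top2a at 0.95 ± 0.09 and Gins2 at 0.85 ± 0.12. For 39 of 40 members, all but Ccne2, every GRDim library was above every GRWT library, while 26.9% of all genes did not overlap in that direction. In the muscle-poor libraries alone, with 3 GRDim against 2 GRWT libraries on water, 0 members passed (0.886% of all genes were higher), 15 had an unadjusted p under 0.05, and the median was 0.20. Each GRDim library was above both GRWT libraries for 27 members, against 21.1% of all genes. Top2a then had a difference of 0.07 ± 0.08, Mki67 0.09 ± 0.09, Rrm2 0.18 ± 0.12 and Bub1b 0.31 ± 0.08.

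A genotype by Myh11 class term, a test added after the data were seen, was fitted over the libraries on water and on zinc together, and the difference between classes on water alone was not tested. The genotype difference was larger in muscle-rich libraries for 27 of 40 members, as for 6.85% of all genes, with a median of 0.39. The term was 0.71 ± 0.10 for Top2a (adjusted p = 6.4e-05, edgeR), 0.54 ± 0.09 for Ccna2, 0.53 ± 0.10 for Mki67 and 0.59 ± 0.13 for Rrm2, and it passed for all 7 genes of spindle and kinetochore but for 3 of 10 of origin licensing and helicase. The count fell to 18 without GRWT water ileum replicate 3. With GRWT zinc ileum replicate 3 kept, 0 members passed (1 at an unadjusted p under 0.05) and 3.28% of all genes did. As a description, in GRWT mice on water the muscle-rich libraries were below the muscle-poor ones for 37 of 40 members, with a median log2 ratio of -0.51 and ratios of -1.07 for Mki67 and -1.01 for Ccne1. In GRDim mice on water that median was -0.07, and 28 of 40 members were lower in the muscle-rich libraries.

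**Figure D3:**
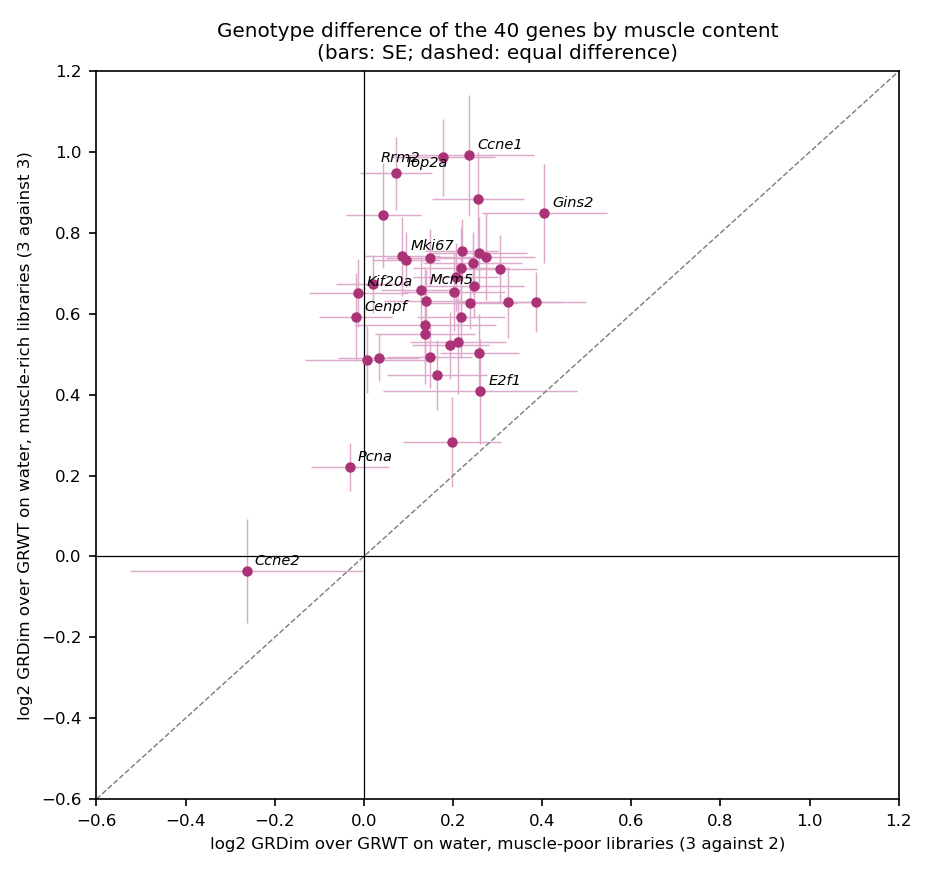
Log2 difference of each of the 40 genes between GRDim and GRWT on water, fitted in muscle-poor libraries (horizontal axis) and in muscle-rich libraries (vertical axis), with SE bars and a dashed line of equal difference. All points lie above the line; Rrm2 and Ccne1 reach 0.99 in the muscle-rich libraries, and Ccne2 is the one gene below 0 in both.

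Markers of other cells moved with genotype in the muscle-rich libraries. Over 10 T cell markers the summed level on water was 394.7 to 470.4 CPM in muscle-rich GRDim libraries and 66.8 to 104.8 CPM in GRWT libraries. In muscle-poor libraries it was 298.7 to 502.1 CPM in GRDim and 195.6 and 430.5 CPM in GRWT. All 10 of the T cell markers were higher in GRDim on water, and none of them was at 0 in any library. Over 8 plasma cell markers the sums were 4200 to 5124 CPM in muscle-rich GRDim and 1868 to 2299 CPM in GRWT libraries on water, with 6 of 8 higher, and Tnfrsf17 was at 0 in 7 libraries. B cell markers summed to 35.7 to 40.7 CPM in muscle-rich GRDim and 13.4 to 16.3 CPM in GRWT libraries on water. Of those tested, 1 of 7 was higher in the main comparison and 0 of 8 in the muscle-rich libraries alone. Smooth muscle markers summed to 1758 to 1980 CPM in muscle-rich GRDim and 2295 to 2498 CPM in GRWT libraries on water. The summed epithelial markers overlapped, with 14914 to 15987 CPM in GRDim and 14742.5 to 15130 CPM in GRWT. Crypt base stem cell markers summed to 1098 to 1146 CPM in GRDim and 1352 to 1495 CPM in GRWT, with 5 of 10 lower and 1 higher in the muscle-rich libraries alone and 2 lower and 1 higher in the main comparison. Paneth cell markers summed to 3290 to 3545 CPM in GRDim and 8346 to 10038 CPM in GRWT, with 9 of 10 lower in muscle-rich libraries and 8 in the main comparison. Mature enterocyte markers summed to 7847 to 8170 CPM in GRDim and 14011 to 15976 CPM in GRWT, and in muscle-poor libraries to 16924 to 18237 CPM and 25298 to 28607 CPM, with 6 of 10 lower in the main comparison. The part of these cells in the member differences was not tested.

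**Figure D4:**
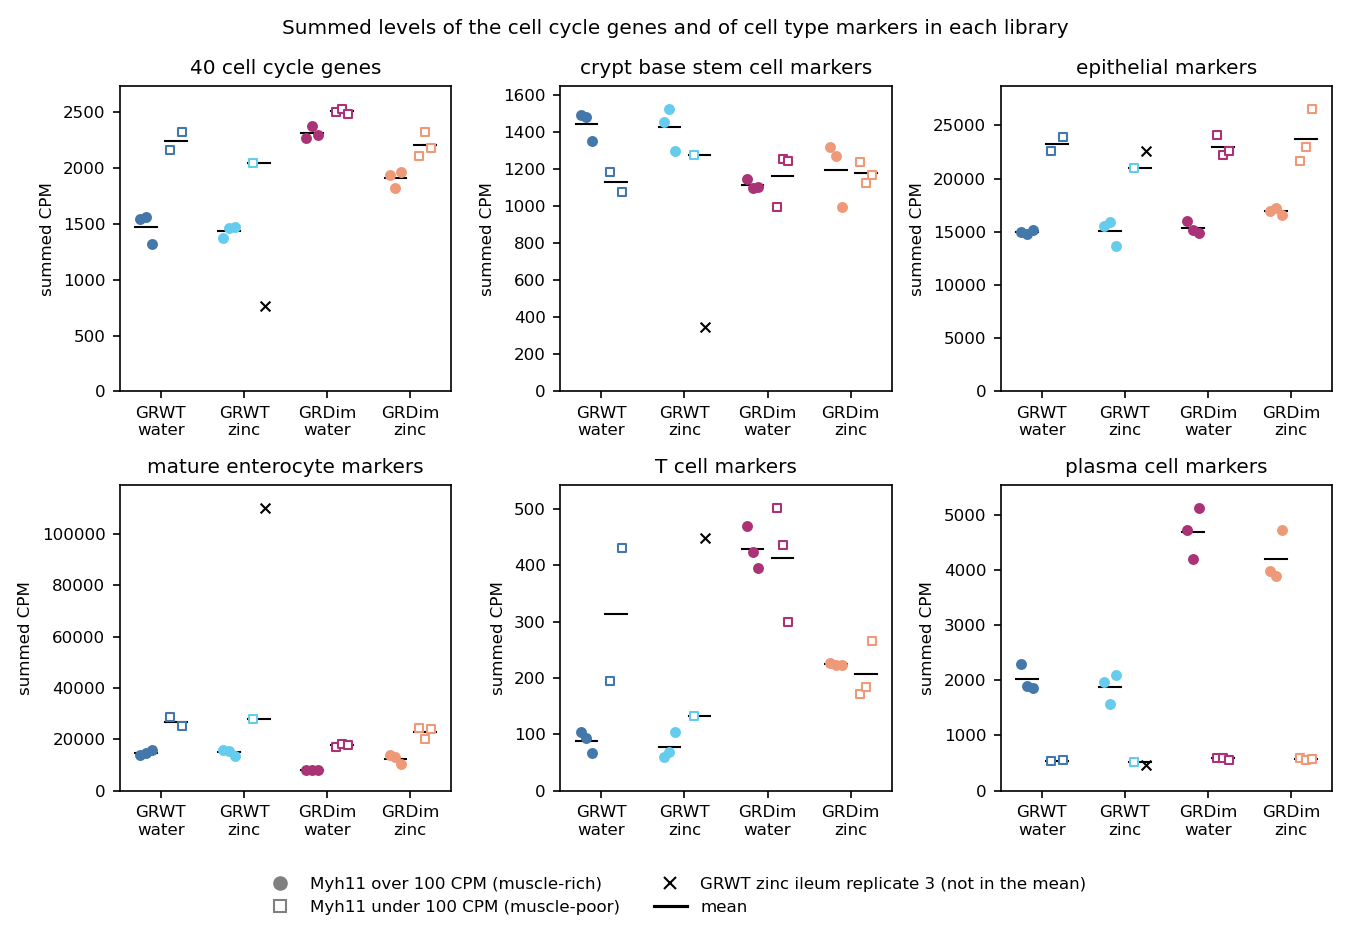
Summed CPM of the 40 cell cycle genes and of 5 marker lists in each library, by condition (symbols as in the plot of 9 genes, axes from 0). In muscle-rich libraries on water the cell cycle sum, the T cell sum and the plasma cell sum are higher in GRDim, the stem cell sum is lower and the epithelial sum overlaps.

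The second comparison asks whether the genotypes also differ in mice that drank zinc. The difference was smaller in estimate, with a median of 0.26, and all 40 estimates were positive. Higher in GRDim were 16 members and lower 0, against 5.04% and 4.18% of all genes. They included Kif23 at 0.43 ± 0.09, which had the smallest p of the 40 (adjusted p = 0.009, edgeR), the mitotic kinase Aurka at 0.41 ± 0.10, the kinetochore genes Cenpf and Cenpe at 0.42 ± 0.11 and 0.49 ± 0.13, Top2a at 0.56 ± 0.14, Mki67 at 0.43 ± 0.11, Foxm1 at 0.37 ± 0.10, Mcm2 at 0.30 ± 0.08, Mcm3 at 0.30 ± 0.08, Bub1b at 0.30 ± 0.08, Birc5 at 0.31 ± 0.09, Ccna2 at 0.35 ± 0.11 and Rrm2 at 0.44 ± 0.13. Ccne1, Cdc20, Mcm5, Cdk1, Plk1, Ccnb1, E2f1 and Pcna did not pass, with estimates of 0.46 ± 0.15 for Ccne1, 0.28 ± 0.09 for Cdc20, 0.23 ± 0.09 for Mcm5, 0.22 ± 0.09 for Cdk1, 0.16 ± 0.09 for Plk1, 0.11 ± 0.09 for Ccnb1, 0.11 ± 0.14 for E2f1 and 0.04 ± 0.06 for Pcna.

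Top2a stood at 231.7, 209.1 and 232.4 CPM in the 3 muscle-rich GRDim libraries on zinc and at 133.3, 133.3 and 133.8 CPM in the 3 GRWT libraries. In muscle-poor libraries it stood at 256.4, 301.6 and 303.9 CPM in GRDim and at 249.4 CPM in the 1 GRWT library kept. The genotypes did not overlap in either class, with a single GRWT library in the muscle-poor one. Genotype on zinc ran wholly with the tissue label in the muscle-poor class and largely with it in the muscle-rich class, as described above. Alone, the muscle-rich libraries gave 28 members higher (9.81% of all genes), and 31 members did not overlap (16.6% of all genes). In the muscle-poor libraries alone 0 members passed (0.0767% of all genes were higher), 2 had an unadjusted p under 0.05, the median was 0.088, and 12 of 40 estimates were negative, among them those of Ccna2 and Kif11. The main count rested on single libraries, since it fell to 1 without GRWT zinc IEC replicate 4 and to 4 without GRWT zinc IEC replicate 5 or without GRDim zinc ileum replicate 3. It was 9 without GRWT zinc ileum replicate 1 and without GRDim zinc ileum replicate 1 or 2. It was 0 with no covariate or with the tissue label in place of the class, 16 with the label in addition to the class, and 8 with all 22 libraries. The calls of Ccna2 and Rrm2 were lost in 12 and 14 of the 21 fits without 1 library, and that of Kif23 in 0. Markers of other cells moved with this comparison too, with 5 of 10 T cell and 6 of 8 plasma cell markers higher and 4 of 10 Paneth cell markers lower in GRDim, and 7, 6 and 8 in the muscle-rich libraries alone. Their part was not tested.

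The third comparison asks what zinc in the drinking water did in each genotype. In GRDim mice 17 of 40 members fell on zinc and 0 rose, while 4.66% of all genes fell and 6.58% rose, and the median member change was -0.25. The calls depended on the class covariate and on the library left out, since 2 members were lower with no covariate, 1 with the tissue label in place of the class, and 0 with all 22 libraries. With the label in addition to the class, the same 17 members were lower. Ccnb1, cyclin B1, stood at 33.2, 40.5 and 34.6 CPM in muscle-rich GRDim libraries on water and at 32.5, 25.9 and 26.1 CPM on zinc. In the muscle-poor libraries it stood at 38.6, 40.4 and 39.8 CPM on water and at 31.2, 30.9 and 27.0 CPM on zinc. The 2 conditions did not overlap in either class, and the change was -0.39 ± 0.08 (adjusted p = 0.0043, edgeR). Ube2c fell by 0.38 on the log2 scale, from 66.1, 71.2 and 69.4 CPM to 55.7, 48.7 and 54.4 CPM in muscle-rich libraries, and Cdc20 changed by -0.33 ± 0.08.

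The members that fell on zinc in GRDim mice came from most roles. Of origin licensing and helicase 4 of 10 fell, among them Mcm3 by -0.32 ± 0.07, Mcm4 by -0.26 ± 0.065 and Cdc45, which holds the active helicase together, by -0.36 ± 0.10. Of S phase synthesis 3 of 5 fell, with Rrm2 at -0.40 ± 0.11, and both genes of the anaphase promoting complex and its activators. Of kinases and checkpoint 3 of 6 fell, with Bub1 at -0.40 ± 0.09, Bub1b at -0.26 ± 0.07 and Plk1 at -0.25 ± 0.08, and of spindle and kinetochore 2 of 7, Tpx2 at -0.30 ± 0.08 and Kif23 at -0.27 ± 0.08. Cdk1 at -0.25 ± 0.07 and Foxm1 at -0.27 ± 0.08 also fell. Their calls were lost in 12 and 13 of the 21 fits that left out 1 library, and that of Plk1 in 11. The calls of Ccnb1, Bub1 and Ube2c were lost in 0 of these fits. The chromosome proteins did not pass, with Top2a at -0.24 ± 0.12 and Mki67 at -0.21 ± 0.10, nor did Mcm5 at -0.23 ± 0.08, Mcm2 at -0.17 ± 0.07, Ccna2 at -0.26 ± 0.09, Ccne1 at -0.28 ± 0.12, E2f1 at -0.15 ± 0.12 and Pcna at -0.06 ± 0.05.

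Within the muscle-rich GRDim libraries 21 members fell (3.24% of all genes), with a median of -0.32, and for 35 members every zinc library was below every water library, against 16.2% of all genes. In muscle-poor libraries 2 members fell (2.11% of all genes), Ccnb1 and Cdc45, and 20 did not overlap, against 13% of all genes. The count in the main comparison lay between 6 and 20 when single libraries were left out. It was lowest without GRDim water IEC replicate 5, and was 7 without replicate 4 or 6 of that group and 8 without GRDim zinc IEC replicate 4 or 6. It was 10 without GRDim zinc ileum replicate 2, and 11 without GRDim zinc IEC replicate 5 or without GRWT water IEC replicate 4 or 5. T cell markers moved in the same direction, with sums of 394.7 to 470.4 CPM on water and 222.5 to 227.2 CPM on zinc in muscle-rich libraries, of which 2 of 10 passed in the main comparison. Mature enterocyte markers moved the other way, with 7847 to 8170 CPM on water and 10539 to 13972 CPM on zinc, and 5 of 10 rose. Their part was not tested.

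In GRWT mice 0 of 40 members passed in either direction, as 0.463% of all genes rose and 0.0951% fell, and 2 members, Kif23 and Cenpf, had an unadjusted p under 0.05. DESeq2 also called 0. The median was -0.08. It was -0.02 in the muscle-rich libraries alone, -0.13 to -0.03 when single libraries were left out, and further below with all 22 libraries. None of the marker lists had a marker that passed here. The 10 B cell markers summed to 285.5 CPM in GRWT zinc ileum replicate 1 and to at most 40.7 CPM in any other library, and 0 members passed without that library too. All 10 smooth muscle markers had negative estimates, with a median of -0.38. The part of these cells was not tested. Rrm2 stood at 24.1, 24.9 and 19.5 CPM on water and at 21.7, 21.7 and 25.3 CPM on zinc in the muscle-rich libraries, which overlapped. The 6 estimates of largest size were -0.26 ± 0.11 for Cenpf, -0.26 ± 0.14 for Cenpe, -0.25 ± 0.14 for Top2a, -0.23 ± 0.10 for Kif23, -0.21 ± 0.14 for Rrm2 and -0.19 ± 0.11 for Kif11. Mki67 was at -0.19 ± 0.12, E2f1 at 0.07 ± 0.14, Ccnb1 at -0.07 ± 0.10, Mcm5 at -0.03 ± 0.09, Cdk1 at -0.01 ± 0.09 and Pcna at 0.02 ± 0.06.

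**Figure D5:**
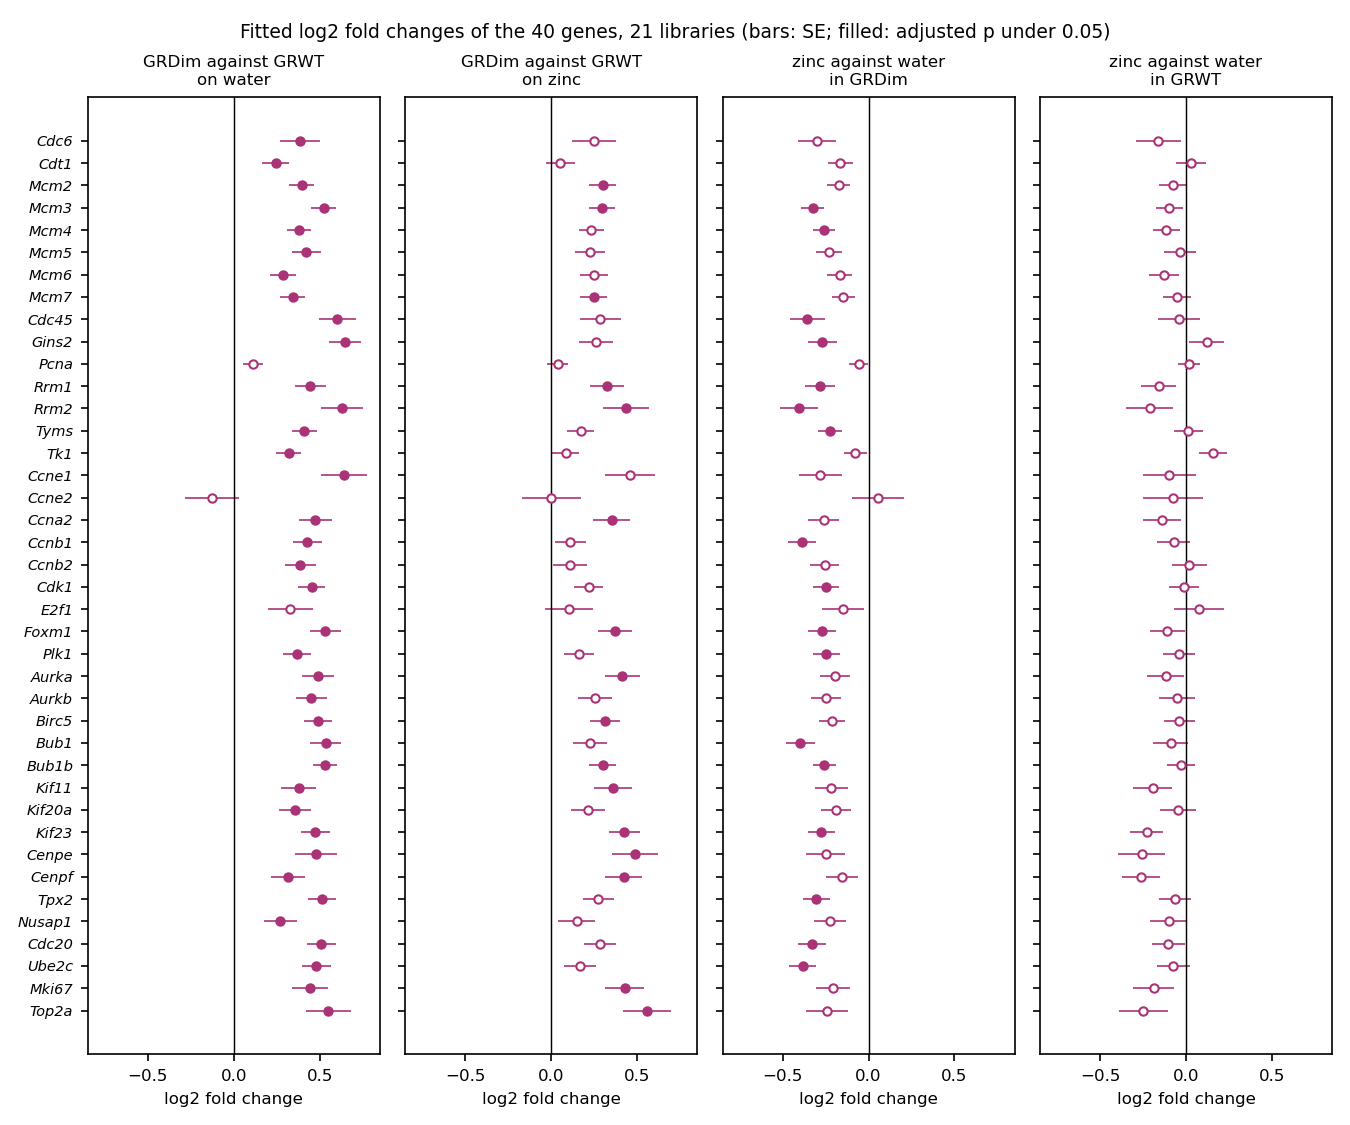
Fitted log2 fold change with SE of each of the 40 genes in 4 comparisons over 21 libraries, filled where the adjusted p was under 0.05. On water 37 genes are filled to the right of 0, on zinc 16, zinc in GRDim shows 17 filled to the left, and zinc in GRWT none.

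That zinc lowered members past the threshold in GRDim and not in GRWT does not show that the genotypes differed in their response to zinc. The test of that difference, the zinc by genotype interaction, passed for 0 members and for 0.0127% of all genes, and 9 members had an unadjusted p under 0.05. DESeq2 likewise called 0. In the muscle-rich libraries alone 0 members passed (0.263% of all genes), and 17 had an unadjusted p under 0.05. The median interaction was -0.18, and the 6 estimates of largest size were -0.39 ± 0.13 for Gins2, -0.32 ± 0.16 for Cdc45, -0.31 ± 0.12 for Ccnb1, -0.31 ± 0.12 for Ube2c, -0.31 ± 0.13 for Bub1 and -0.28 ± 0.13 for Ccnb2. Those of Top2a and Mki67 were 0.01 ± 0.19 and -0.02 ± 0.15. With all 22 libraries the median interaction turned positive, and 18 members, called in neither fit, changed sign. The comparisons share libraries, as GRDim on water enters both the genotype difference on water and the zinc change in GRDim.

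Other genes of the cycle, from a list of 86 outside the 40 of which 85 were tested, were described in the same fits. On water 58 were higher in GRDim and 7 lower, in the setting where 16.9% and 16.3% of all genes were called. Higher were 19 of 24 replication genes, such as Pole, the leading strand polymerase, at 0.75 ± 0.08, 26 of 30 genes of mitosis, such as Cdca8 at 0.47 ± 0.06 and Incenp at 0.55 ± 0.08, which anchor Aurora B, and 8 of 14 E2F and Myb factors, such as E2f2 at 0.50 ± 0.06. The genes of G1 were divided, with 5 of 17 higher and 4 lower. The inhibitors Cdkn1c (p57) at -1.36 ± 0.15 and Cdkn1b (p27) at -0.32 ± 0.07 were lower in GRDim, as were the G1 kinase Cdk6 at -0.41 ± 0.08 and Tfdp2, a partner of E2F proteins, at -0.29 ± 0.06.

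On zinc 16 of these 85 genes were higher in GRDim and 4 lower, against 5.04% and 4.18% of all genes, so the share of lower genes was near that of all genes. Pole at 0.52 ± 0.08, Incenp at 0.43 ± 0.09, Cdca8 at 0.32 ± 0.07 and the replication factor Mcm10 at 0.39 ± 0.08 were higher, and Cdk6 at -0.45 ± 0.08, Cdkn1c at -0.61 ± 0.15 and Cdkn1b at -0.27 ± 0.08 were among the lower ones. Zinc in GRDim mice lowered 20 and raised 3, against 4.66% and 6.58% of all genes, so that the share that rose was no larger than that of all genes. Cyclin D1 (Ccnd1) fell by 0.62 on the log2 scale, the helicase subunit Gins1 by 0.42, the kinetochore gene Nuf2 by 0.38 and Cdca3, a factor of mitotic entry, by 0.37. Cdkn1c rose by 0.78 ± 0.15, Tfdp2 by 0.22 ± 0.06 and E2f5 by 0.24 ± 0.07. Of the 30 genes of mitosis 14 fell and 0 rose. Zinc in GRWT mice and the interaction gave 0 calls among the 85, with 5 and 13 at an unadjusted p under 0.05. A fit of the muscle-rich libraries gave 39 of the 85 higher in GRDim on zinc and 3 lower, against 9.81% and 9% of all genes. In that fit zinc lowered 12 and raised 2 in GRDim, against 3.24% and 4.46% of all genes.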

How the data were processed

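RNA of 22 libraries of small intestine was sequenced single-end after stranded library preparation. The authors trimmed reads with Trimmomatic, aligned them to mm10 with HISAT2 2.0.4 and assigned them to genes in featureCounts, where reads of several alignments were dropped. The deposited values are raw counts per gene. The annotation release and strand setting are not given in the sources used here, and PCR duplicates were not told apart from molecules.

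Counts were fitted with edgeR 4.0.16 (quasi-likelihood test, robust, TMM, filterByExpr) in R 4.3.3, with 4 conditions and the Myh11 class (over or under 100 CPM) in 1 fit of 21 libraries. GRWT zinc ileum replicate 3 was left out. A gene passed at an adjusted p under 0.05 (Benjamini-Hochberg, 15780 genes). The script was tested on simulated data with 200 changed genes. Alternatives were DESeq2 1.42.0, other filters, scalings, covariates and library sets. RPKM used the exon union of GENCODE vM21. The members, marker lists and pathway lists were chosen with earlier results of these data known. Named were 14 anchor members, up to 12 passing members per direction with the smallest p, the 6 largest estimates where fewer than 12 passed, and 4 pathway genes per direction, of which 1 is not reported here.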

Additional observations from a re-analysis of the deposited data

Results flagged for a closer look

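In GRWT zinc ileum replicate 3, 3 members lay far below the other libraries of their condition, by Dixon's test of the gap over the range. Mcm5 was at 13.8 CPM, against 41.3 CPM in the nearest library. Rrm2 was at 10.2 CPM, against 21.7 CPM. E2f1 was at 3.15 CPM, against 6.42 CPM. In all, 60 groups were tested and 3 gave such a gap, and chance gives about 1 in 20. This library was left out of the main comparisons.

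The genotype difference was larger in muscle-rich than in muscle-poor libraries for 27 of 40 members by the interaction term in edgeR, over water and zinc together. The count was 0 with all 22 libraries.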

How the results depend on the processing

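The counts depended on the Myh11 class, on GRWT zinc ileum replicate 3 and on other single libraries. With all 22 libraries, 0 members were lower on zinc in GRDim (17 in the main fit), 11 were higher in GRDim on water (37) and 8 on zinc (16), and the medians were -0.27 for zinc in GRWT, 0.48 for genotype on zinc and 0.025 for the interaction. The genotype by class term passed for 0 members. With no covariate the counts were 2, 22 and 0, and with the tissue label in place of the class 1 member was lower on zinc in GRDim and 0 higher in GRDim on zinc. With the label in addition to the class the counts were 17, 37 and 16, of which 17, 37 and 15 were among the main calls. Muscle-rich libraries alone gave 28 higher on zinc and a median of 0.65 on water. Muscle-poor libraries alone gave 2 lower on zinc in GRDim and 0 higher in GRDim on water or on zinc, with medians of 0.20 and 0.088. Among members called in the main fit, Kif20a (-0.013) and Cenpf (-0.018) on water and Ccna2 (-0.00097) and Kif11 (-0.016) on zinc changed sign there, as did 1 member on water and 10 on zinc that were called in neither fit. With GRWT zinc ileum replicate 3 kept among muscle-poor libraries, an alternative chosen after seeing the data, the counts were 0, 0 and 0, the medians -0.65 for zinc in GRWT, 0.19 on water, 0.62 on zinc and 0.45 for the interaction, and Kif20a (-0.015) and Cenpf (-0.020) were below 0 on water. Fitting only the conditions compared gave 27 lower on zinc in GRDim, and a filter of at least 1 count gave 10 higher on zinc. Beyond 0.8 the counts in the main fit were 0, 0 and 0, whereas the muscle-rich libraries alone gave 6 on water. The cause was not tested.

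The replicate block, which leaves out the 2 libraries without a number, gave 32 lower on zinc in GRDim, medians of 0.56 on water and -0.31 for the interaction, and 2 members passing the interaction. Those 2 libraries are muscle-poor GRDim ileum on water. Their columns share a name, so which sample each belongs to cannot be told. Same-numbered libraries had deviations with correlations of -0.172 to 0.238, and 2 of 8 numbers matched best with themselves. A pairing by number was not seen. The check does not settle it, because same-numbered GRDim libraries on water and on zinc lay in opposite Myh11 classes.

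Leaving out single libraries gave 6 to 20 members lower on zinc in GRDim (medians -0.28 to -0.20), 33 to 38 higher in GRDim on water (medians 0.37 to 0.50), 1 to 21 higher on zinc (medians 0.23 to 0.30), medians of -0.13 to -0.03 for zinc in GRWT and -0.22 to -0.11 for the interaction, and 18 to 29 passing the genotype by class term. DESeq2 called 17, 37 and 21, of which 16, 37 and 16 were among the main calls. Members with the lowest counts, such as E2f1 with 66 counts in its lowest of 21 libraries, are the least precise.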
